A study of Mus musculus with 16 samples.

Results

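The ribosome biogenesis factors are nucleolar proteins that make ribosomes and are not part of the finished ribosome. They were measured here by RNA sequencing of mouse CD8 T cells recovered from tumours. A list of 51 genes was taken, chosen with earlier results of these data known. All 51 were found in the deposited table of 55573 genes and passed the filter on low counts, which kept 13711 genes. The list holds 5 genes of the RNA polymerase I machinery, 22 small-subunit factors, 12 large-subunit factors, 7 core proteins of small nucleolar ribonucleoproteins (snoRNPs) and 5 other nucleolar proteins. Ribosome production begins in the nucleolus, where RNA polymerase I transcribes a long precursor of ribosomal RNA. The small-subunit processome folds and cuts one end of that precursor, a separate set of factors assembles the large subunit, and snoRNPs guide chemical modification of the RNA. T cells are known to build up this machinery when they are activated and grow.

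The cells were OT1 CD8 T cells, which carry a transgenic T cell receptor for an ovalbumin peptide, of the C57BL/6 strain, and they had been transferred into tumour-bearing mice. Per the labels, live transferred cells were sorted out of tumours after 5 days of treatment by CD8 and CD45.1 or CD90.1. The 16 libraries fall into 4 groups of 4, named Foxp3UP, its control MockUP, Foxp3DN and its control MockDN. The series asks what Foxp3, which defines regulatory T cells, does when CD8 T cells used for therapy express it. Mice received Foxp3UP cells mixed with Mock cells. The meaning of UP and DN is not in the labels, and neither is how Foxp3 or the control was introduced, which tumour was used, or how old the mice were. The labels also do not say whether libraries of a group came from separate mice, so the p-values measure the spread between these libraries, which may in part be technical.

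Levels below are CPM, counts scaled to library size. Libraries held between 9389477 and 13226590 counts. Foxp3 itself had 15.2, 20.95, 29.5 and 28.7 CPM in Foxp3UP 1 to 4, against 11.5, 13.002, 13.7 and 11.5 CPM in MockUP 1 to 4, a log2 fold change of 0.92 ± 0.17, adjusted p = 0.00233 (edgeR). Foxp3 had 10.1 to 10.4 CPM in Foxp3DN and 10.99 to 14.6 CPM in MockDN, so its level did not exceed the control in Foxp3DN. The 5 CD8 T cell marker genes summed to at least 2656 CPM in every library, and the B cell markers, Cd4 and the fibroblast markers stayed at or below 6.08 CPM. The summed melanocytic markers were 39.5 to 81.6 CPM in Foxp3UP and 35.4 to 55.1 CPM in MockUP, and the summed epithelial or tumour markers were 7.49 to 16.8 CPM in Foxp3UP and 3.61 to 9.30 CPM in MockUP. The 5 myeloid markers summed to 21.4 to 30.7 CPM in Foxp3UP and 17.95 to 26.9 CPM in MockUP, and Ms4a1 (B cell) was at 0 in every library. Of the 2 endothelial markers, Cdh5 was at 0 in every library, and Pecam1, which leukocytes also carry, had 53.9 to 63.1 CPM in Foxp3UP and 47.6 to 68.3 CPM in MockUP. The part of these markers in the results below was not tested. MockUP 2 stood apart in a way that follows gene length, and replicates 3 and 4 stood apart from replicates 1 and 2 in all groups, and values without MockUP 2 and within these sets are given beside the results they touch.

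Most of the module was lower in Foxp3UP than in MockUP cells. Of the 51 genes, 44 were lower and 0 higher at a Benjamini-Hochberg adjusted p under 0.05 by edgeR's quasi-likelihood test, while 5.99% of all genes tested were lower and 6.08% higher. The remaining 7, Polr1c, Polr1e, Wdr12, Ebna1bp2, Nip7, Nop10 and Nhp2, did not pass, and the log2 fold change was below 0 for all 51. The median log2 fold change was -0.66, a level 1.58-fold lower, against 0.00 over all genes tested. Single genes ranged from -1.16 for Utp20, which was 2.23-fold lower, to -0.33 for Nip7, which was 1.26-fold lower. In all, 30 genes were at least 1.5-fold lower and 2 of them, Utp20 and Polr1b, at least 2-fold lower. With same-numbered Foxp3UP and MockUP libraries treated as pairs (the replicate block), 49 of the 51 were lower, against 12% of all genes, and Ebna1bp2 and Nhp2 did not pass. Without MockUP 2, 50 passed as lower, all but Nip7, against 6.97% of all genes.

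The module's share of all counts was also computed for each library. It was 0.540, 0.610, 0.612 and 0.645% of counts in Foxp3UP 1 to 4, against 0.808, 0.931, 1.03 and 1.06% in MockUP 1 to 4. It was 0.881, 0.853, 1.08 and 0.991% in Foxp3DN 1 to 4, against 0.879, 0.819, 1.07 and 0.989% in MockDN 1 to 4. All 4 Foxp3UP libraries thus lay below all 12 others, which overlapped. Gene by gene, all Foxp3UP libraries lay below all MockUP libraries for 42 of the 51 genes, against 7.29% of all genes tested, and below all 12 other libraries for 41 genes, against 4.7%. These are levels relative to other RNA in bulk samples, in which fewer cells that express a gene and less of its RNA per cell cannot be told apart.

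**Figure D1:**
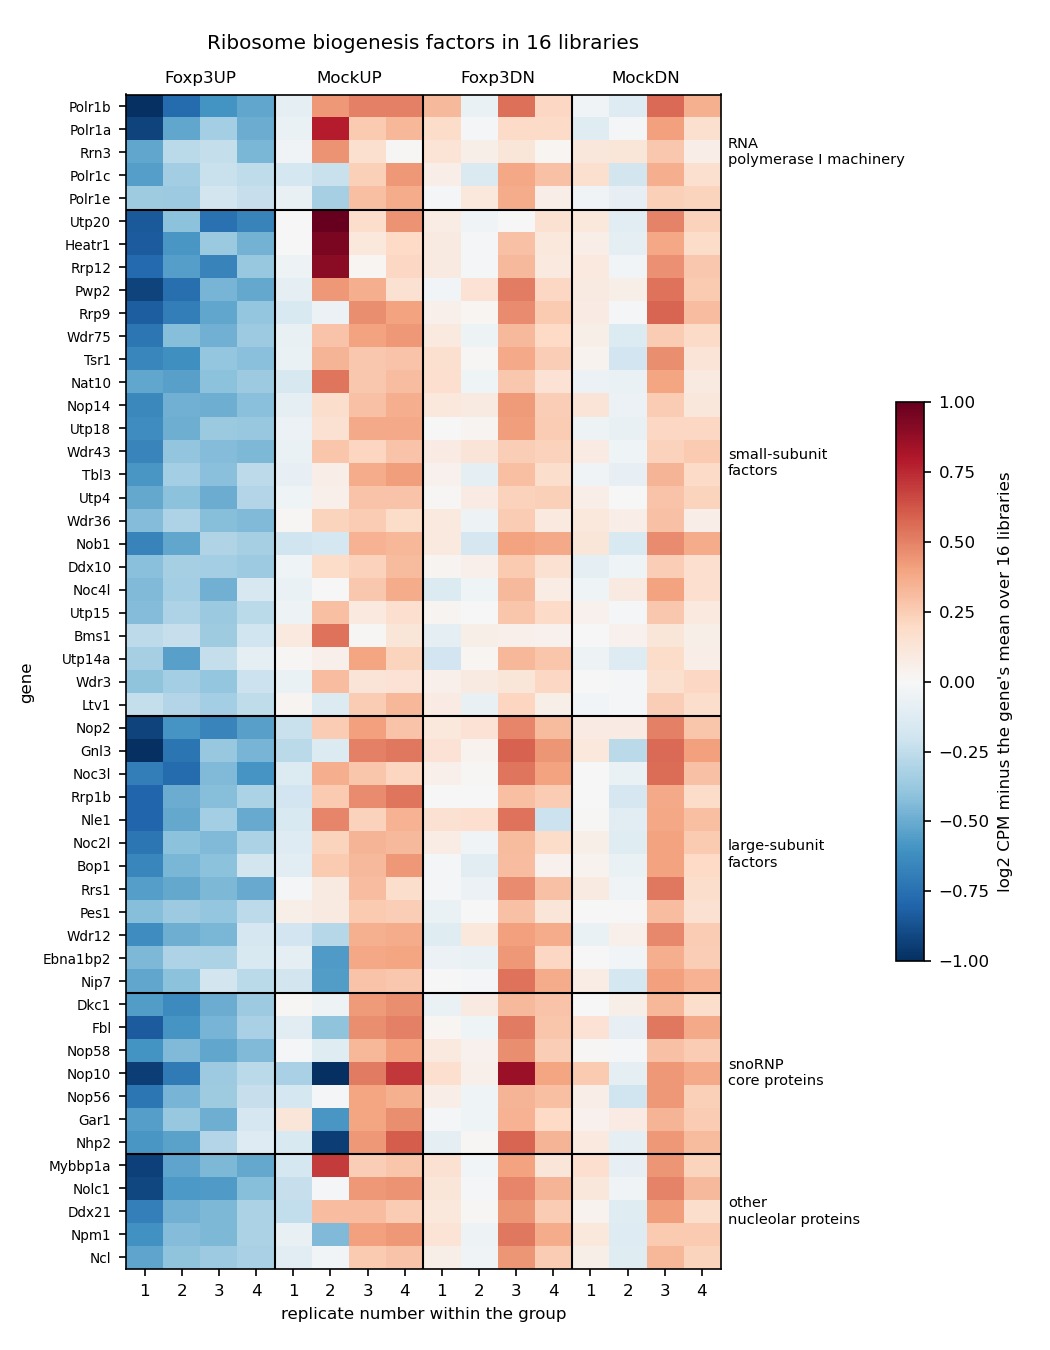
Heat map of 51 ribosome biogenesis factors in 16 libraries, grouped by class and ordered by fold change within each class; colour is log2 CPM minus the gene's mean over the 16 libraries. The 4 Foxp3UP columns are blue for nearly all genes, the other 12 are mostly pale or red, and MockUP 2 holds the darkest red (Utp20, Heatr1, Rrp12) beside blue (Nop10, Nhp2).

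RNA polymerase I transcribes the ribosomal RNA precursor, and 3 of its 5 measured genes were lower in Foxp3UP. Polr1a and Polr1b encode the pair of large subunits that form the catalytic centre. Levels of single genes are given as CPM scaled by the trimmed mean of M-values (TMM), and fold changes with their standard error from edgeR with 4 libraries a group. Polr1b had 25.9, 35.9, 40.4 and 42.6 CPM in Foxp3UP 1 to 4, against 57.5, 82.8, 86.5 and 86.7 CPM in MockUP 1 to 4. Every Foxp3UP library of Polr1b was below every MockUP library, and its log2 fold change of -1.11 ± 0.19, adjusted p = 0.00124 was the largest of the class, 2.17-fold lower. Polr1b had 76.7, 58.5, 89.5 and 70.6 CPM in Foxp3DN 1 to 4, against 59.6, 55.8, 90.4 and 78.4 CPM in MockDN 1 to 4. The DN groups of Polr1b overlapped, with a log2 fold change of 0.06 ± 0.18.

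Polr1a had 31.3, 41.4, 46.8 and 41.98 CPM in Foxp3UP 1 to 4, against 56.7, 102, 71.1 and 74.7 CPM in MockUP 1 to 4. The groups did not overlap, MockUP 2 was the highest library, and the log2 fold change was -0.92 ± 0.16, adjusted p = 0.00163 with it and -0.75 (adjusted p = 0.00214) without it. Rrn3, the factor that recruits the polymerase to the ribosomal gene promoter and responds to growth signals, had 42.2, 49.97, 51.2 and 43.9 CPM in Foxp3UP 1 to 4, against 58.96, 82.6, 67.4 and 60.9 CPM in MockUP 1 to 4. Rrn3 levels were 1.44-fold lower (-0.53 ± 0.11, adjusted p = 0.00418). Polr1c, a subunit shared with RNA polymerase III, had a log2 fold change of -0.43 that passed with the replicate block (adjusted p = 0.00395) and not without it (adjusted p = 0.0817), although its Foxp3UP libraries of 47.4, 54.5, 59.4 and 58.4 CPM all lay below the MockUP libraries of 61.4, 59.6, 81.8 and 93.5 CPM. Polr1e, a subunit that helps the enzyme initiate, had 31.4, 31.3, 35.4 and 34.3 CPM in Foxp3UP 1 to 4, against 38.1, 31.9, 49.6 and 52.1 CPM in MockUP 1 to 4, and MockUP 2 fell among the Foxp3UP libraries. Its log2 fold change of -0.38 did not pass (adjusted p = 0.0986) and was -0.50 (adjusted p = 0.0116) without MockUP 2.

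All 22 small-subunit factors were lower in Foxp3UP, with a median log2 fold change of -0.63. The earliest of them bind the precursor while it is being transcribed and form the UtpA complex, here Wdr43, Heatr1, Wdr75, Utp4 and Utp15. Wdr43 had the smallest adjusted p of the module. Its levels were 193, 232, 226 and 223 CPM in Foxp3UP 1 to 4, against 291, 369, 354 and 371 CPM in MockUP 1 to 4. The highest Foxp3UP library of Wdr43 was below the lowest MockUP library, and the log2 fold change was -0.66 ± 0.10, adjusted p = 0.000614, or 1.58-fold lower. In the DN groups Wdr43 had 323, 333, 361 and 357 CPM in Foxp3DN 1 to 4, against 322, 296, 358 and 365 CPM in MockDN 1 to 4. These 8 libraries all lay above the Foxp3UP libraries and overlapped each other (0.03 ± 0.10).

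Wdr75 had 46.6, 57.04, 55.04 and 59.8 CPM in Foxp3UP 1 to 4, against 73.1, 93.5, 102 and 104 CPM in MockUP 1 to 4. It was 1.70-fold lower (-0.77 ± 0.12, adjusted p = 0.000942), with 74.2 to 96.2 CPM in Foxp3DN and 70.03 to 91.6 CPM in MockDN. Utp4 had 89.9, 96.4, 90.8 and 105 CPM in Foxp3UP 1 to 4, against 124, 133, 156 and 156 CPM in MockUP 1 to 4, a smaller difference (-0.57 ± 0.10, adjusted p = 0.00139) between separate groups. Utp15 had 64.9 to 72.8 CPM in Foxp3UP and 84.8 to 108 CPM in MockUP (-0.48 ± 0.10, adjusted p = 0.00369). Heatr1 had 50.7, 60.3, 69.8 and 65.1 CPM in Foxp3UP 1 to 4, against 90.4, 173, 96.8 and 103 CPM in MockUP 1 to 4. MockUP 2 was far above the other libraries of Heatr1, whose log2 fold change was -0.92 ± 0.17, adjusted p = 0.00265 with MockUP 2 and -0.66 (adjusted p = 0.00153) without it. All 5 UtpA genes had separate Foxp3UP and MockUP groups.

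The UtpB complex joins next and binds the U3 snoRNP, and its 5 listed genes, Pwp2, Tbl3, Wdr3, Wdr36 and Utp18, were all lower. Pwp2 had 29.9, 33.8, 41.2 and 39.9 CPM in Foxp3UP 1 to 4, against 53.2, 76.8, 73.2 and 63.2 CPM in MockUP 1 to 4. It showed the largest change of the complex, 1.84-fold lower (-0.88 ± 0.15, adjusted p = 0.00135). Utp18 had 73.7, 80.8, 87.7 and 87.2 CPM in Foxp3UP 1 to 4, against 109, 126, 147 and 147 CPM in MockUP 1 to 4 (-0.68 ± 0.12, adjusted p = 0.00148). Wdr36 was measured with little spread, at 67.8, 74.2, 68.5 and 67.8 CPM in Foxp3UP 1 to 4, against 92.5, 107, 109.5 and 104 CPM in MockUP 1 to 4. Its standard error of 0.09 was the smallest of the module, and its log2 fold change was -0.57 (adjusted p = 0.000741). Wdr3 (-0.47 ± 0.09, adjusted p = 0.00284) and Tbl3 (-0.60 ± 0.13, adjusted p = 0.00578) changed to a similar extent.

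Nop14, whose yeast counterpart works with that of Noc4l in cutting the precursor, had 39.8, 44.5, 44.3 and 46.4 CPM in Foxp3UP 1 to 4, against 58.3, 70.1, 76.1 and 79.8 CPM in MockUP 1 to 4. It was 1.62-fold lower (-0.70 ± 0.11, adjusted p = 0.000855). In the DN groups Nop14 had 67.05, 66.03, 83.7 and 73.6 CPM in Foxp3DN 1 to 4, against 68.01, 59.7, 74.2 and 67.1 CPM in MockDN 1 to 4, which overlapped (0.11 ± 0.11). Noc4l had 95.1 to 118 CPM in Foxp3UP and 127 to 172 CPM in MockUP (-0.51 ± 0.13, adjusted p = 0.0152). Utp20, a very large scaffold protein of the processome, had 13.1, 17.7, 14.04 and 14.8 CPM in Foxp3UP 1 to 4, against 23.4, 51.2, 26.5 and 32.1 CPM in MockUP 1 to 4. Utp20 showed the largest log2 fold change of the 51 genes, -1.16 ± 0.20, adjusted p = 0.00139. Its MockUP 2 value was far above the others, and without that library the log2 fold change was -0.88 (adjusted p = 0.00107). Rrp12, which acts late in maturation and export of the small subunit, was likewise highest in MockUP 2, and its log2 fold change was -0.91 ± 0.18, adjusted p = 0.003 with MockUP 2 and -0.66 (adjusted p = 0.00219) without it.

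Nat10 is the enzyme that acetylates small-subunit RNA. Nat10 had 57.9, 57.04, 62.6 and 64.4 CPM in Foxp3UP 1 to 4, against 74.4, 120.4, 100.02 and 103 CPM in MockUP 1 to 4 (-0.72 ± 0.13, adjusted p = 0.00214). Tsr1, a protein related to the processome GTPase Bms1 that acts on later particles, had 77.8, 80.1, 93.5 and 91.7 CPM in Foxp3UP 1 to 4, against 117, 155, 148 and 149.6 CPM in MockUP 1 to 4 (-0.73 ± 0.13, adjusted p = 0.00167). Bms1 itself had 63.7 to 70.8 CPM in Foxp3UP and 82.1 to 119 CPM in MockUP (-0.47 ± 0.10, adjusted p = 0.00609). Ddx10, an RNA helicase, had 94.1, 99.7, 99.1 and 97.4 CPM in Foxp3UP 1 to 4, against 122, 142, 147 and 156 CPM in MockUP 1 to 4, and the 4 Foxp3UP libraries agreed within a few CPM (-0.54 ± 0.10, adjusted p = 0.00169). Rrp9, a protein of the U3 snoRNP, was 1.72-fold lower (-0.78 ± 0.16, adjusted p = 0.00463). The smallest change of the class was that of Ltv1, an export and maturation factor of the small subunit, with 82.5, 79.3, 76.7 and 81.4 CPM in Foxp3UP 1 to 4, against 99.3, 88.4, 116 and 122 CPM in MockUP 1 to 4 (-0.41 ± 0.10, adjusted p = 0.0156). Nob1, the nuclease that makes the final cut of small-subunit RNA, and Utp14a, which in yeast activates a processome helicase, passed narrowly. Nob1 had 65.4 to 84.1 CPM in Foxp3UP and 90.4 to 132 CPM in MockUP (-0.55 ± 0.17, adjusted p = 0.0385) and Utp14a had 20.5 to 27.99 CPM in Foxp3UP and 30.03 to 39.2 CPM in MockUP (-0.47 ± 0.14, adjusted p = 0.0311). The call of Nob1 was lost without any single Foxp3UP library or without MockUP 3 or 4 (adjusted p between 0.0504 and 0.102). That of Utp14a was lost without Foxp3UP 1, 2 or 3 or MockUP 3 or 4 (adjusted p between 0.056 and 0.101).

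**Figure D2:**
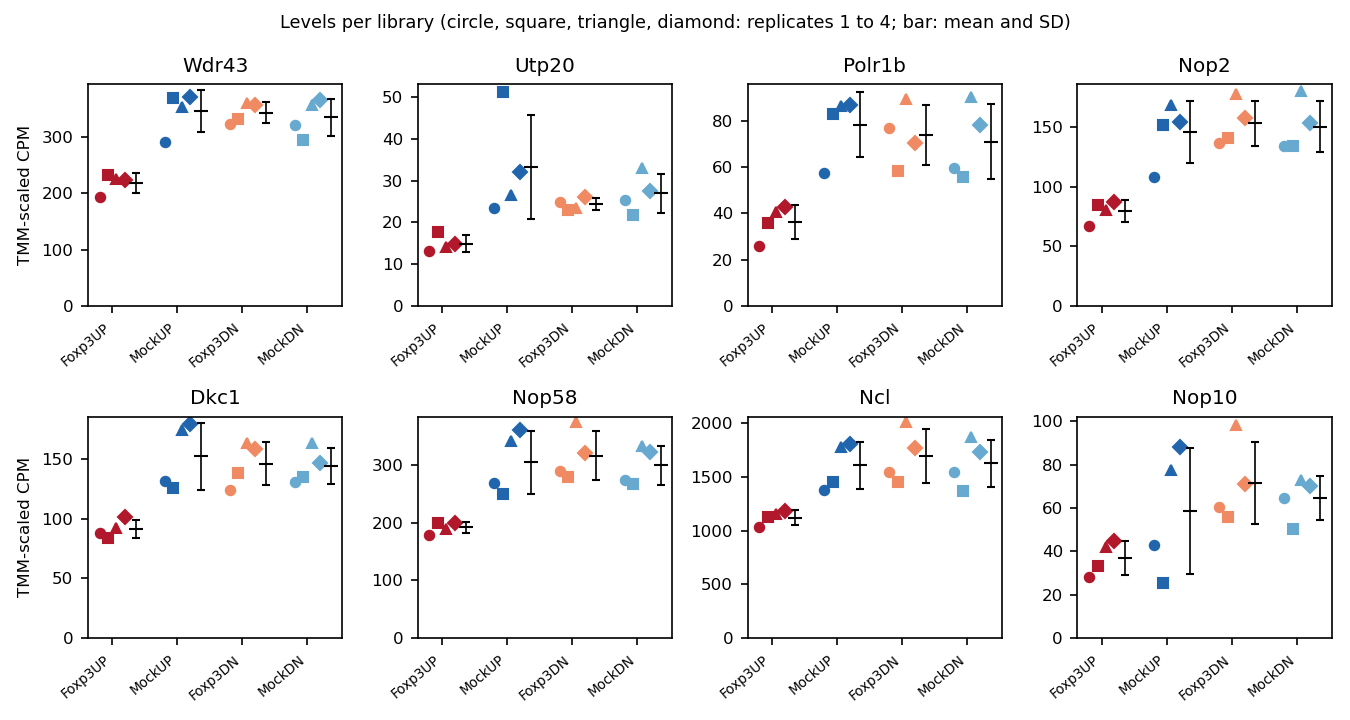
TMM-scaled CPM of 8 members in every library, with one panel per gene and axes from 0; symbols mark replicates 1 to 4 and bars give the mean and SD of each group (n = 4). Foxp3UP points lie below all other points except in Nop10, where MockUP 2 lies below every Foxp3UP library.

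Promoter sequence of these genes was also examined. RefSeq windows of 300 bases, from 250 before to 50 after the transcription start on GRCm38.p6, were at hand for 44 of the 51 genes. They were searched for the E-box CACGTG, the letters bound by Myc with Max and by related factors, which read the same on both strands. The windows shown are those of the 4 genes with the smallest adjusted p in Foxp3UP against MockUP among the 44, printed 5′ to 3′ with any E-box in capitals. Their positions are chr17:71615965-71616264, plus strand, for Wdr43, chr5:34660099-34660398, minus strand, for Nop14, chr6:125131633-125131932, plus strand, for Nop2 and chr1:45794916-45795215, plus strand, for Wdr75.
Wdr43: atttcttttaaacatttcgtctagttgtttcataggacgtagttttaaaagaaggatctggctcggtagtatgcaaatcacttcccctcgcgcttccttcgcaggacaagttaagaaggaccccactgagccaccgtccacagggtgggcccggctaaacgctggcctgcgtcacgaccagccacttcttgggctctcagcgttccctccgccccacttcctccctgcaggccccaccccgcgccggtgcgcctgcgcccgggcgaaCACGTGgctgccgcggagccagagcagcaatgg
Nop14: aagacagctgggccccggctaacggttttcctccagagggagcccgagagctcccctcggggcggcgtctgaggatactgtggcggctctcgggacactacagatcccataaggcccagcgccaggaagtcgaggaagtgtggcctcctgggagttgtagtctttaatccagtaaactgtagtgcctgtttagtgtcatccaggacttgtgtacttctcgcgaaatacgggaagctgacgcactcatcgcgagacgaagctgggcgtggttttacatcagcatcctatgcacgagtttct
Nop2: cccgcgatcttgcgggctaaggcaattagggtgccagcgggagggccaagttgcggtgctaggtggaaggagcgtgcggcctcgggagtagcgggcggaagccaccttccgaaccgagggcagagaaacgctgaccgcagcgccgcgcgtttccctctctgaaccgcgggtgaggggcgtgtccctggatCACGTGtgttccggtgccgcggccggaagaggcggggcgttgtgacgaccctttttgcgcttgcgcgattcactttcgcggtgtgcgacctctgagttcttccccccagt
Wdr75: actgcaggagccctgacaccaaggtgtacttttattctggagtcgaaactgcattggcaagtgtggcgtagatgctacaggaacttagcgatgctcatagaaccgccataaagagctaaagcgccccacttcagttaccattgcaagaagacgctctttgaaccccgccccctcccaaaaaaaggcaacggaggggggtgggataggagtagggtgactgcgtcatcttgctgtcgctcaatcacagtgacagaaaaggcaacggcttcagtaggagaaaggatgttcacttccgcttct
Wdr43 held 1 E-box, 17 bases after the start, Nop2 held 1, beginning 60 bases before it, and Nop14 and Wdr75 held 0 in these windows. Of the 44 genes, 11 held at least 1 E-box, or 25%, against 11.8% of the 9374 tested genes with a window and 8.09% of all 27025 genes with one. The 11 were Wdr43, Utp4, Utp18, Utp20, Tsr1, Ltv1, Nop2, Pes1, Nle1, Rrn3 and Mybbp1a. By class they were 6 of 19 small-subunit factors, 3 of 10 large-subunit factors, 1 of 5 RNA polymerase I genes, 1 of 4 other nucleolar proteins and 0 of 6 snoRNP proteins. The 11 genes held 12 sites, since Rrn3 held 2, and 8 of the 12 began at or after the start. Among the other pathway genes listed below, 13 of 75 (17.3%) held the motif, and among cytosolic ribosomal protein genes 6 of 61 (9.84%). A match describes letters in a window and is not a measured binding site, and the part of the motif in the lower levels was not tested. Rrp12, Tbl3, Bop1, Fbl, Wdr36, Npm1 and Rrs1 were not searched.

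Of the 12 large-subunit factors, 9 were lower in Foxp3UP, and the class median was -0.66. Nop2, a methyltransferase of large-subunit RNA, led them with 66.8, 84.1, 80.1 and 86.9 CPM in Foxp3UP 1 to 4, against 108, 151, 168 and 154 CPM in MockUP 1 to 4. The groups of Nop2 were separate by a wide gap, and the log2 fold change was -0.87 ± 0.14, adjusted p = 0.000871, or 1.83-fold lower. In the DN groups Nop2 had 136, 140.4, 178 and 158 CPM in Foxp3DN 1 to 4, against 134, 134, 179.996 and 154 CPM in MockDN 1 to 4, with no separation (0.03 ± 0.14). Pes1, Bop1 and Wdr12 form the PeBoW complex, which is needed to process the RNA of the large subunit. Pes1 had 124, 129, 127 and 138 CPM in Foxp3UP 1 to 4, against 173, 177, 199.7 and 197 CPM in MockUP 1 to 4 (-0.52 ± 0.10, adjusted p = 0.00217). Bop1 had 109, 125, 129 and 152 CPM in Foxp3UP 1 to 4, against 160.4, 206, 216 and 233 CPM in MockUP 1 to 4 (-0.66 ± 0.14, adjusted p = 0.00453). Wdr12, the remaining partner, had 37.3, 40.99, 41.8 and 51.2 CPM in Foxp3UP 1 to 4, against 50.3, 47.1, 73.6 and 74.2 CPM in MockUP 1 to 4. Its groups overlapped, and its log2 fold change of -0.52 missed the threshold (adjusted p = 0.0558). It passed with the replicate block (adjusted p = 0.00191), and it was -0.63 (adjusted p = 0.0179) without MockUP 2.

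Noc2l and Noc3l have yeast counterparts that escort the large subunit out of the nucleolus. Noc2l had 249.98, 311, 304 and 331 CPM in Foxp3UP 1 to 4, against 377, 483, 522 and 518 CPM in MockUP 1 to 4 (-0.67 ± 0.13, adjusted p = 0.00355). Noc3l had 19.2, 18.1, 22.8 and 20.6 CPM in Foxp3UP 1 to 4, against 28.1, 39.8, 37.4 and 35.9 CPM in MockUP 1 to 4 (-0.81 ± 0.16, adjusted p = 0.00351). Rrp1b, a nucleolar protein of the same step, had 67.1, 82.6, 86.9 and 93.5 CPM in Foxp3UP 1 to 4, against 102, 139.8, 162 and 169 CPM in MockUP 1 to 4 (-0.80 ± 0.15, adjusted p = 0.0029). All 3 had separate groups. Rrs1, which in yeast helps to insert 5S ribosomal RNA, had 55.8 to 59.8 CPM in Foxp3UP and 80.7 to 101 CPM in MockUP (-0.65 ± 0.13, adjusted p = 0.00389). Nle1, whose yeast counterpart is removed from the large subunit by the motor protein Mdn1, was 1.71-fold lower (-0.78 ± 0.17, adjusted p = 0.0068). Gnl3, the GTPase nucleostemin, had 68.2, 86.9, 111 and 105 CPM in Foxp3UP 1 to 4, against 119.8, 132, 204 and 208 CPM in MockUP 1 to 4 (-0.84 ± 0.21, adjusted p = 0.0159), and its call was lost without Foxp3UP 1 (adjusted p = 0.0515). Gnl3 overlaps the antisense gene Pbrm1, which had a similar mean count, and the sources used here do not give whether the counting used strand. Nip7 and Ebna1bp2, both assembly factors of the large subunit, did not pass. Nip7 had 58.2, 62.7, 73.3 and 69.1 CPM in Foxp3UP 1 to 4, against 73.1, 56.6, 101 and 100.03 CPM in MockUP 1 to 4, and Ebna1bp2 had 123, 136, 135 and 151 CPM in Foxp3UP 1 to 4, against 158, 113, 219.9 and 222 CPM in MockUP 1 to 4. In both genes MockUP 2 was below every Foxp3UP library, while the other 3 MockUP libraries were above all of them except Nip7 in MockUP 1, which was just below Foxp3UP 3. The log2 fold change of Nip7 was -0.33 ± 0.18, adjusted p = 0.253 with MockUP 2, -0.48 (adjusted p = 0.058) without it, and -0.30 (adjusted p = 0.0439) with the replicate block. That of Ebna1bp2 was -0.39 ± 0.18, adjusted p = 0.169 with it and -0.55 (adjusted p = 0.0138) without it.

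The snoRNP core proteins form a pair of machines. Box C/D particles, with the methyltransferase Fbl (fibrillarin) and the scaffold proteins Nop56 and Nop58, methylate ribosomal RNA, and all 3 of these genes were lower. Nop58 had 179, 199.96, 189 and 199.6 CPM in Foxp3UP 1 to 4, against 269, 249.6, 341 and 362 CPM in MockUP 1 to 4, with separate groups (-0.67 ± 0.13, adjusted p = 0.0025). Nop56 had 344, 411, 443 and 485 CPM in Foxp3UP 1 to 4, against 503, 564, 747 and 727 CPM in MockUP 1 to 4 (-0.59 ± 0.16, adjusted p = 0.0186), and its call was lost without Foxp3UP 1 (adjusted p = 0.0574) or MockUP 3 (adjusted p = 0.0513). Fbl had 168, 198, 216 and 238 CPM in Foxp3UP 1 to 4, against 276, 226, 411 and 423 CPM in MockUP 1 to 4. Its MockUP 2 library lay below Foxp3UP 4, and the log2 fold change was -0.71 ± 0.19, adjusted p = 0.0233 with MockUP 2 and -0.86 (adjusted p = 0.00459) without it. The call of Fbl was lost without Foxp3UP 1 or 2 or MockUP 3 or 4 (adjusted p between 0.0582 and 0.0706).

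Box H/ACA particles, with the pseudouridine synthase Dkc1 (dyskerin) and its partners Gar1, Nhp2 and Nop10, convert uridines of ribosomal RNA and also form part of telomerase. Dkc1 had 88.6, 83.8, 92.3 and 101 CPM in Foxp3UP 1 to 4, against 132, 126, 175 and 179.5 CPM in MockUP 1 to 4. Its groups were separate and it was 1.67-fold lower (-0.74 ± 0.13, adjusted p = 0.00135). In the DN groups Dkc1 had 125, 139, 163 and 159 CPM in Foxp3DN 1 to 4, against 131, 136, 164 and 147 CPM in MockDN 1 to 4, which overlapped (0.02 ± 0.13). Nop10 and Nhp2 had the largest standard errors of the 51 genes. Gar1 had 49.7, 55.9, 51.8 and 64.8 CPM in Foxp3UP 1 to 4, against 79.04, 48.6, 95.5 and 100.2 CPM in MockUP 1 to 4, and it passed at the margin (-0.54 ± 0.17, adjusted p = 0.0487). Its call was lost without Foxp3UP 1, 2 or 3 or MockUP 1, 3 or 4 (adjusted p between 0.0595 and 0.129). Nop10 had 28.2, 33.1, 41.9 and 44.7 CPM in Foxp3UP 1 to 4, against 43.1, 25.6, 77.5 and 88.02 CPM in MockUP 1 to 4. Nhp2 had 65.6, 67.8, 79.9 and 89.4 CPM in Foxp3UP 1 to 4, against 88.2, 50.97, 132 and 149 CPM in MockUP 1 to 4. In these 3 genes MockUP 2 was below every Foxp3UP library, and the other MockUP libraries were mostly above them, with MockUP 1 below Foxp3UP 4 in Nop10 and in Nhp2. The log2 fold change of Nop10 did not pass at -0.66 ± 0.30, adjusted p = 0.167, passed with the replicate block (adjusted p = 0.0403), and was -0.92 (adjusted p = 0.024) without MockUP 2. That of Nhp2 was -0.47 ± 0.25, adjusted p = 0.236 with MockUP 2, -0.71 (adjusted p = 0.022) without it, and did not pass with the block (adjusted p = 0.0861). Nhp2 also overlaps the antisense gene Rmnd5b, which had a similar mean count.

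The other 5 nucleolar proteins were all lower. Ncl (nucleolin), an abundant RNA-binding protein of the nucleolus, had 1029, 1123, 1152 and 1184 CPM in Foxp3UP 1 to 4, against 1378, 1457, 1783 and 1809 CPM in MockUP 1 to 4 (-0.52 ± 0.13, adjusted p = 0.0138). Its groups were separate, and in the DN groups it had 1449 to 2011 CPM in Foxp3DN and 1368 to 1870.1 CPM in MockDN. Mybbp1a, a nucleolar protein that binds transcription factors, had 150.5, 199.9, 210.2 and 202 CPM in Foxp3UP 1 to 4, against 255, 467, 341 and 348 CPM in MockUP 1 to 4 (-0.89 ± 0.16, adjusted p = 0.00199). Nolc1, a chaperone of snoRNPs, was 1.74-fold lower (-0.80 ± 0.16, adjusted p = 0.00453). Ddx21, an RNA helicase of the nucleolus, was 1.57-fold lower (-0.65 ± 0.14, adjusted p = 0.00599). Npm1 (nucleophosmin), the most abundant member per length, had 476, 536, 529 and 581 CPM in Foxp3UP 1 to 4, against 685, 531, 961 and 976 CPM in MockUP 1 to 4. MockUP 2 fell inside the range of Foxp3UP, and the log2 fold change was -0.57 ± 0.17, adjusted p = 0.0374 with MockUP 2 and -0.72 (adjusted p = 0.00311) without it. The call of Npm1 was lost without any single Foxp3UP library or without MockUP 3 or 4 (adjusted p between 0.0559 and 0.1).

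**Figure D3:**
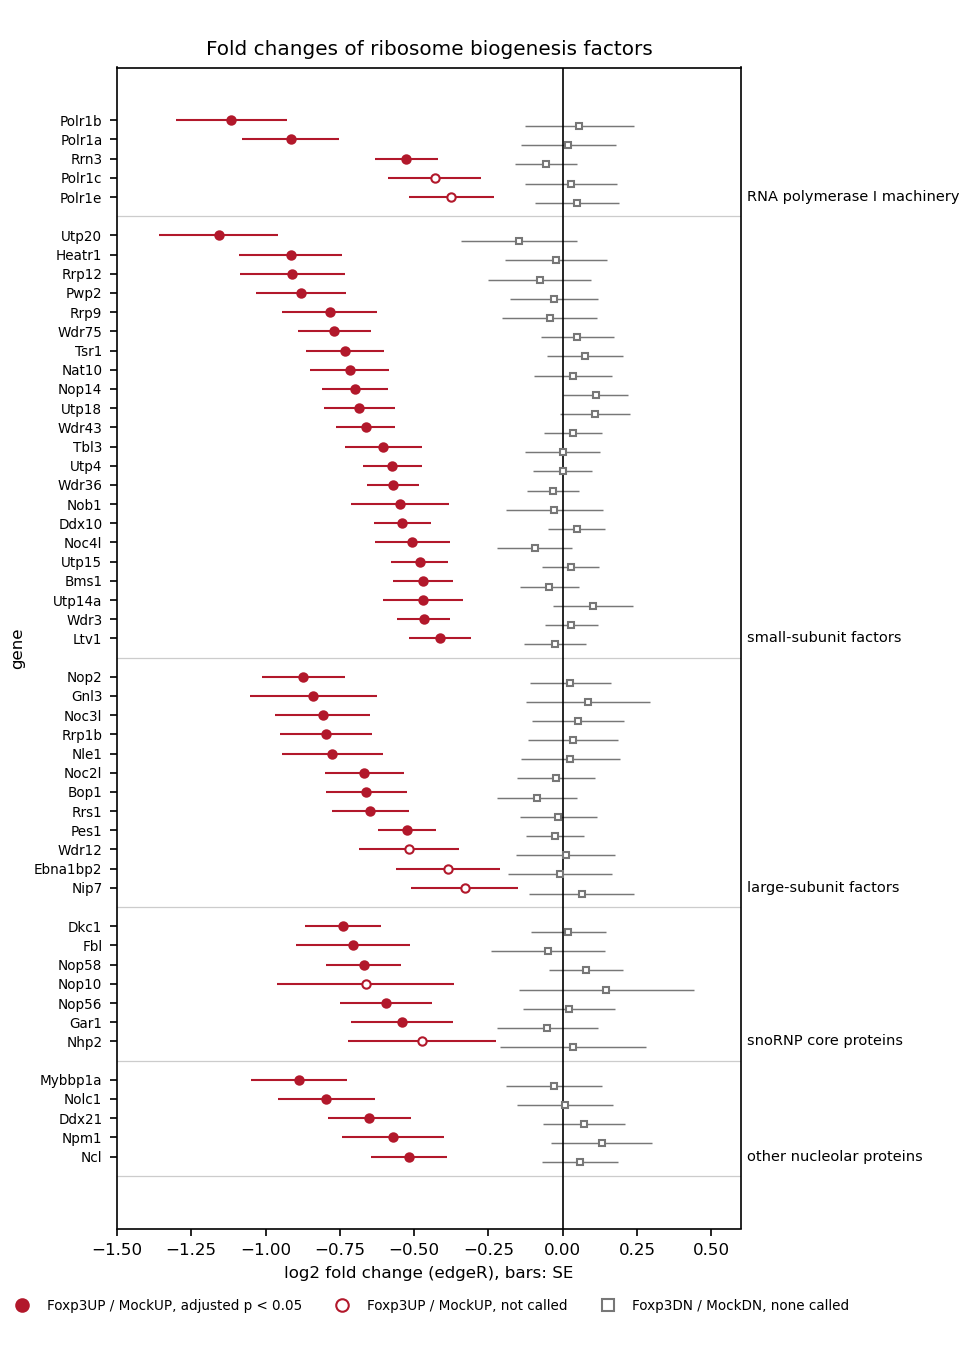
Log2 fold changes of the 51 genes by class, with bars of 1 SE from edgeR (n = 4 libraries a group); circles are Foxp3UP against MockUP, filled where the adjusted p is under 0.05, and squares are Foxp3DN against MockDN. All circles lie left of 0, between -1.16 and -0.33, while the squares lie on both sides of 0 between -0.15 and 0.15.

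Class medians lay close together. Median log2 fold changes in Foxp3UP against MockUP were -0.53 for RNA polymerase I, -0.63 for small-subunit factors, -0.66 for large-subunit factors, -0.66 for snoRNP proteins and -0.65 for other nucleolar proteins. These medians were not tested against each other, since genes of a class share libraries. The share that passed was 3 of 5, 22 of 22, 9 of 12, 5 of 7 and 5 of 5 in the same order, and 5, 22, 11, 7 and 5 genes passed without MockUP 2. Per length, as TPM computed from the counts and the deposited exonic lengths, levels spanned a wide range. Utp20 was lowest at 4.08 ± 0.61 TPM in Foxp3UP and 10.2 ± 5.14 TPM in MockUP (SD, n = 4 each), and Npm1 was highest at 555 ± 33.5 TPM in Foxp3UP and 879.8 ± 149.9 TPM in MockUP. Across the 51 genes, the level per length in MockDN and the log2 fold change had a Spearman rho of 0.21, a description over genes that share the same libraries.

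MockUP 2 shaped the order of genes within the module. Its log2 CPM minus the mean of the other 3 MockUP libraries followed exonic length, with a Spearman rho of 0.46 over the 51 genes and 0.44 over all 13711 genes. Such a relation was not confined to MockUP 2. Against its own group, Foxp3DN 3 had a rho of -0.41 over the 51 genes and -0.23 over all genes, and Foxp3DN 1 had 0.36 and 0.18. The shortest listed genes were low in MockUP 2, at -1.37 for Nop10 (1109 bases), -1.24 for Nhp2 (1146 bases) and -0.90 for Gar1 (1714 bases). Some long ones were high in it, at 0.91 for Utp20 (10199 bases) and 0.84 for Heatr1 (7828 bases). Others were low in it, at -0.46 for Wdr12 (11955 bases) and -0.36 for Nop58 (10758 bases), and Rrp12 (4340 bases) was at 0.84. Exonic length and the log2 fold change of Foxp3UP against MockUP had a rho of -0.32 over the 51 genes with MockUP 2 and -0.04 without it. The median log2 fold change was -0.66 both with and without that library. Without it, Utp20, Heatr1 and Rrp12 came closer to that median, and Nop10, Nhp2, Ebna1bp2, Polr1e, Polr1c and Wdr12 passed. Polr1c also passed without MockUP 1, and Wdr12 without MockUP 1 or Foxp3UP 4 (adjusted p = 0.0411, 0.0303 and 0.0465 in that order).

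**Figure D4:**
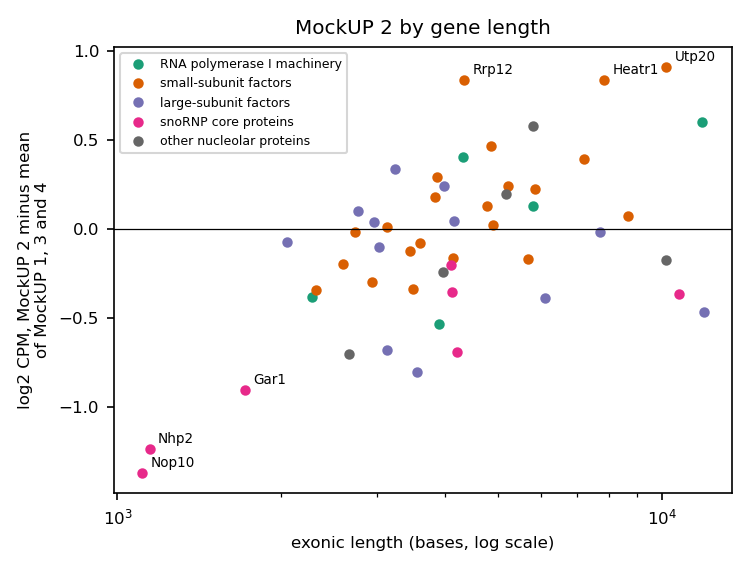
Each point is 1 of the 51 genes, coloured by class; the x axis is exonic length in bases (log scale) and the y axis is log2 CPM in MockUP 2 minus the mean of MockUP 1, 3 and 4. Values run from -1.37 for Nop10, the shortest gene, to 0.91 for Utp20, with a Spearman rho of 0.46. The trend is loose, and the longer genes Wdr12 (-0.46) and Nop58 (-0.36) lie below 0.

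Replicates 3 and 4 had higher levels of the module than replicates 1 and 2 in every group. The mean was higher in replicates 3 and 4 for 47 Foxp3UP genes, 44 MockUP genes, 50 Foxp3DN genes and 51 MockDN genes. Median log2 differences were 0.17, 0.31, 0.27 and 0.31 in the same order. Over all genes tested these medians were 0.02, -0.0006, -0.003 and 0.008, and the share of all genes with a higher mean was not computed. By the sample numbers in the titles, replicates 3 and 4 follow replicates 1 and 2 throughout, and the labels give no reason. The 16 proliferation genes ran the other way, with mean log2 deviations of 0.48 to 1.32 in replicates 1 and 2 of Foxp3UP and MockUP and of -0.52 to -0.27 in their replicates 3 and 4, and their part in the result was not tested. Within each pair of same-numbered libraries, Foxp3UP was lower than MockUP for 51, 45, 51 and 51 of the 51 genes in pairs 1 to 4, with median log2 ratios of -0.55, -0.60, -0.74 and -0.68. With the spread of all libraries, 40 genes were lower within replicates 1 and 2, against 5.48% of all genes, and 46 within replicates 3 and 4, against 4.5%. The median was -0.58 within replicates 1 and 2 and -0.69 within replicates 3 and 4. Within replicates 1 and 2, H/ACA genes had a median of -0.22, with Nop10 at -0.17 (adjusted p = 0.643) and Nhp2 at -0.06 (adjusted p = 0.858). Within replicates 3 and 4 it was -0.81, with Nop10 at -0.93 (adjusted p = 0.0119) and Nhp2 at -0.73 (adjusted p = 0.0239). In pair 1 the log2 ratios were -0.57 for Dkc1, -0.67 for Gar1, -0.61 for Nop10 and -0.43 for Nhp2. In pair 2, which holds MockUP 2, they were -0.58, 0.20, 0.37 and 0.41 in the same order.

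Foxp3DN and MockDN cells did not differ detectably in the module. By edgeR 0 of the 51 genes passed in either direction, where 0.00729% of all genes (1 gene) did, 0 had an unadjusted p under 0.05, and 0 passed by DESeq2 or with the replicate block, where 0.00729% of all genes did in each. For the unadjusted p the share of all genes was 1.04%. Log2 fold changes ran from -0.15 (Utp20) to 0.15 (Nop10), with a median of 0.02, and 21 of 51 were below 0. For no gene did the 4 Foxp3DN libraries separate from the 4 MockDN libraries, against 1.15% of all genes. Foxp3DN was the lower library for 26, 11, 31 and 24 genes in pairs 1 to 4. The most precise estimates were those of Wdr36 (-0.03 ± 0.09), Wdr3 (0.03 ± 0.09) and Utp15 (0.03 ± 0.10), and the least precise was that of Nop10 (0.15 ± 0.29). Foxp3 was not higher in Foxp3DN than in MockDN either, as given above. A p that misses the threshold does not show that the groups are alike.

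The difference between the Foxp3UP and Foxp3DN effects was below 0 for all 51 genes, with a median of -0.66 on the log2 scale. Of these, 15 passed by edgeR, all with a lower effect in Foxp3UP, where 0.868% of all genes passed in that direction. They were Polr1a and Polr1b, 10 small-subunit factors (Wdr43, Nop14, Wdr75, Utp4, Utp18, Tsr1, Ddx10, Nat10, Wdr36 and Pwp2), the large-subunit factor Nop2 and the snoRNP proteins Nop58 and Dkc1. The difference was -0.81 ± 0.16, adjusted p = 0.0129 for Nop14, -0.70 ± 0.14, adjusted p = 0.0178 for Wdr43, -0.90 ± 0.20, adjusted p = 0.0263 for Nop2 and -1.17 ± 0.26, adjusted p = 0.0301 for Polr1b. With the replicate block 45 genes passed, against 6.16% of all genes, and DESeq2 passed 33, against 2.53%. The count depended on single libraries, and the share of all genes that passed as lower moved with it. It was 4, 6, 6 and 7 without Foxp3UP 1, 2, 3 and 4, where 0.41, 0.554, 0.402 and 0.488% of all genes passed. Without MockUP 1, 3 and 4 it was 31, 4 and 5, where 1.86, 0.451 and 0.495% of all genes passed. Without Foxp3DN 3 or Foxp3DN 4 it was 2 each, where 0.331 and 0.329% passed. Without MockDN 1, 2, 3 and 4 it was 2, 2, 28 and 6, where 0.281, 0.316, 1.37 and 0.365% passed. The counts without MockUP 2, Foxp3DN 1 or Foxp3DN 2 are not listed here. In those fits 191 of 13941, 91 of 13908 and 114 of 13921 genes passed as lower, in the same order. With the spread of all libraries, 1 gene passed within replicates 1 and 2, against 0.219% of all genes, and 17 within replicates 3 and 4, against 0.963%.

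The control cells of the UP and DN arms did not differ detectably either. In MockUP against MockDN 0 of 51 genes passed by edgeR, where 0.00729% of all genes did. None had an unadjusted p under 0.05, against 3.16% of all genes, and 0 passed by DESeq2, against 0.0438%. Log2 differences ran from -0.19 to 0.31 with a median of 0.03. The highest was that of Utp20, whose MockUP 2 value stood apart. MockUP enters this comparison and that with Foxp3UP, so the values are set side by side and not related to each other.

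**Figure D5:**
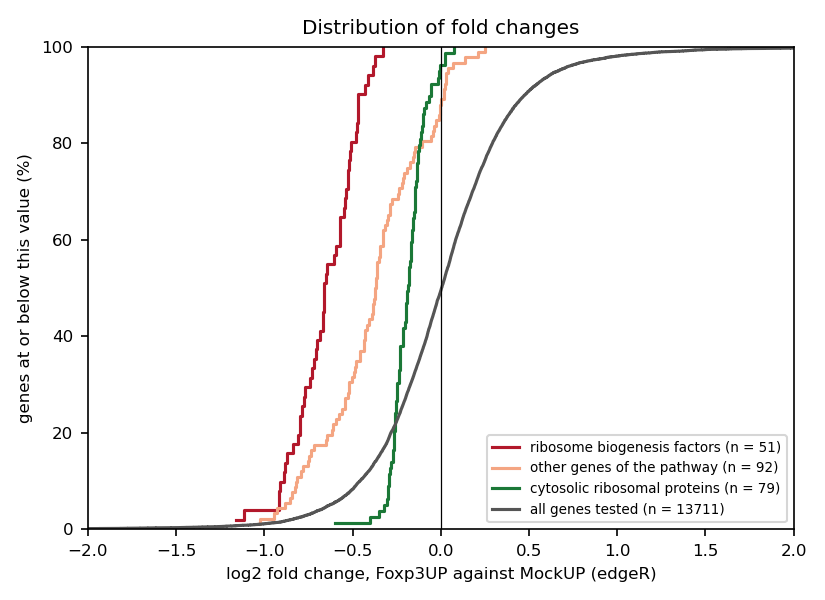
Cumulative share of genes (y axis, percent) at or below each log2 fold change of Foxp3UP against MockUP (x axis) for the 51 ribosome biogenesis factors, 92 other genes of the pathway, 79 cytosolic ribosomal protein genes and all 13711 genes tested. The curve of the 51 genes lies wholly left of 0 (median -0.66), that of the other pathway genes lies between (median -0.37), and that of all genes has its median at 0.00.

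Other genes of the pathway were examined in the same comparison. The list of 92 further ribosome biogenesis genes was drawn from pathway knowledge, also with earlier results of these data known. Of the 92, 43 were lower and 0 higher in Foxp3UP. Of all genes tested, 5.99% were lower and 6.08% higher. The median log2 fold change of the 92 was -0.37. By class the lower genes were 2 of 10 RNA polymerase I genes, 12 of 32 small-subunit factors, 24 of 40 large-subunit factors and 5 of 10 snoRNP core and assembly proteins. In each class the gene with the smallest adjusted p is named here. Ubtf, the architectural factor of ribosomal gene chromatin, had 121, 116, 111 and 120.1 CPM in Foxp3UP 1 to 4, against 139, 159, 142 and 147 CPM in MockUP 1 to 4 (-0.33 ± 0.07, adjusted p = 0.00842). Diexf, a processome protein, had 5.82, 6.402, 6.52 and 6.83 CPM in Foxp3UP 1 to 4, against 9.67, 12.4, 13.6 and 11.5 CPM in MockUP 1 to 4 (-0.88 ± 0.14, adjusted p = 0.000828). Ddx51, an RNA helicase of the large subunit, had 23.4, 25.4, 24.1 and 23.2 CPM in Foxp3UP 1 to 4, against 34.2, 36.3, 37.1 and 39.7 CPM in MockUP 1 to 4 (-0.61 ± 0.10, adjusted p = 0.000909). Shq1, a chaperone of Dkc1, had 12.2, 11.8, 10.2 and 12.9 CPM in Foxp3UP 1 to 4, against 18.2, 14.995, 18.2 and 20.01 CPM in MockUP 1 to 4 (-0.60 ± 0.13, adjusted p = 0.00805). With the replicate block 61 of the 92 were lower, against 12% of all genes, and 2 were higher, against 13.3%. The higher ones were Taf1b at 0.21 (adjusted p = 0.0319) and Ttf1 at 0.25 (adjusted p = 0.0484). Taf1b belongs to the factor that marks the ribosomal gene promoter and Ttf1 ends its transcription. In Foxp3DN against MockDN 0 of the 92 passed by edgeR, DESeq2 or an unadjusted p under 0.05. Of all genes, 0.00729, 0.00729 and 1.04% did so in the same order. In the difference of the Foxp3UP and Foxp3DN effects only 2 of the 92 passed as lower by edgeR, against 0.868% of all genes. With DESeq2 21 passed, against 2.53%, and with the replicate block 52 passed, against 6.16%.

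Cytosolic ribosomal protein genes, the products that these factors assemble, gave calls that depended on which libraries were fitted. Of 79 tested, 0 passed in Foxp3UP against MockUP by edgeR or DESeq2, and the median log2 fold change was -0.19. An unadjusted p under 0.05 was found for 2 of them by edgeR, and for 3657 of all 13711 genes. That median was 0.25 within replicates 1 and 2 and -0.48 within replicates 3 and 4 with the spread of all libraries. Mean log2 deviations of these genes were -0.37, -0.18, -0.18 and -0.02 in Foxp3UP 1 to 4. In MockUP 1 to 4 they were -0.24, -0.85, 0.32 and 0.44. Foxp3UP was thus the higher library only in pair 2, which holds MockUP 2, and the lower one in pairs 1, 3 and 4. With replicates 3 and 4 fitted alone, 75 of the 79 passed as lower, against 12% of all genes, and 73 passed as lower in the difference of effects, against 7.37%. With replicates 1 and 2 fitted alone 0 passed, where 0.0571% of all genes passed as lower. At an unadjusted p under 0.05, 3 were higher in that fit, where 2655 of 14006 genes had such a p in either direction. Without MockUP 2 the median was -0.38, and 19 passed as lower, against the 6.97% of all genes given above. With the replicate block 1 passed, Rps10 of the small subunit, at -0.60 (adjusted p = 0.0203). Reads of these genes can be shared with near-identical pseudogenes. Of 16 proliferation genes 0 passed by edgeR or DESeq2, with a median of 0.15. By edgeR 0 of them had an unadjusted p under 0.05, against the 3657 of 13711 genes given above. With the replicate block 3 of the 16 were higher in Foxp3UP, against 13.3% of all genes. These were Ccnb2 at 0.43 (adjusted p = 0.00629), Birc5 at 0.55 (adjusted p = 0.0273) and Aurkb at 0.24 (adjusted p = 0.0489). That count is close to the share of all genes. Other genes of mitosis on the list did not pass with the block, among them Cdk1 (adjusted p = 0.188), Plk1 (adjusted p = 0.278) and Ccnb1 (adjusted p = 0.659). In the difference of effects 0 of the 16 passed without the block by edgeR, DESeq2 or an unadjusted p under 0.05, which 2145 of 13711 genes had by edgeR. With the block 6 passed as higher, against 6.53% of all genes. Myc, a transcription factor known to drive ribosome production, had 218, 345, 349 and 375 CPM in Foxp3UP 1 to 4, against 359.8, 561, 653 and 715 CPM in MockUP 1 to 4. Its level was 1.78-fold lower in Foxp3UP (-0.83 ± 0.18, adjusted p = 0.00684), although MockUP 1 lay below Foxp3UP 4. In the DN groups Myc had 477 to 607 CPM in Foxp3DN and 503 to 575 CPM in MockDN. Its difference of effects was -0.89 ± 0.26 and did not pass by edgeR (adjusted p = 0.0838), while it passed with the replicate block (adjusted p = 0.000143). The part of Myc in the results above was not tested.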

How the data were processed

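The table deposited by the authors gives unnormalized counts for each gene, 1 column per library, with gene coordinates and exonic length in bases per the file headers. STAR 2.6.1, Subread 1.6.3 and the build mm10 are named in the submitters' processing notes; which options, strand setting and annotation the counting used is not given in the sources here. Symbols came from GENCODE release M21, which held 55480 of 55573 identifiers. Columns were matched to samples by the sample number in the titles, and no column repeated another.

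Genes were kept with filterByExpr (minimum count 10), scaled by TMM, and tested in R 4.3.3 by edgeR 4.0.16 with its robust quasi-likelihood F test and a term per group over all 16 libraries. Calls are two-sided at a Benjamini-Hochberg adjusted p under 0.05 over all 13711 genes. The standard error (SE) is the log2 fold change divided by the square root of F. Calls without a replicate block are the main ones. As a check of the pairing, libraries with the same number shared deviations from their group means. The correlation r was 0.63, 0.213, 0.297 and 0.398 for Foxp3UP with MockUP and 0.364, 0.582, 0.545 and 0.298 for Foxp3DN with MockDN. It was 0.107 to 0.326 for the Mock groups. The numbers were taken as pairs in the replicate block only, and the main p-values leave any pairing out. Some libraries of different number within a replicate set correlated as strongly (Foxp3UP 4 with MockUP 3 at 0.364, MockUP 1 with MockDN 2 at 0.594), so the check does not separate pairs from sets. For reported counts and genes, blocked values are given where they change a call.

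The 51 genes, the other lists and the tests were chosen with earlier results of these data known. Named with values were the 25 genes with the smallest adjusted p in Foxp3UP against MockUP, the highest and lowest of each class and 12 fixed genes, 34 in all; others were added after their values were seen. Alternatives were RLE size factors, library totals, other filters, DESeq2 1.42.0, the 8 compared libraries alone, the replicate block, replicates 1 and 2 or 3 and 4 alone, and leaving out each library. Added after seeing the data were scaling without the 51 genes and a term per group and replicate set. The steps were tested on simulated data.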

Additional observations from a re-analysis of the deposited data

Results flagged for a closer look

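In 204 groups of 4 libraries (51 genes in 4 groups), 7 held 1 library farther from the rest than Dixon's 95% criterion allows, where chance gives about 1 in 20. The high ones were Heatr1 at 173 CPM in MockUP 2, Wdr36 at 74.2 CPM in Foxp3UP 2 and Wdr36 at 113 CPM in MockDN 3. The low ones were Polr1a at 58.9 CPM in Foxp3DN 2, Bms1 at 76.1 CPM in Foxp3DN 1, Polr1b at 57.5 CPM in MockUP 1 and Ddx21 at 126 CPM in MockUP 1.

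For 15 genes the effect in Foxp3UP against MockUP differed from that in Foxp3DN against MockDN by edgeR's test of the difference itself. The log2 differences were -0.93 for Polr1a, -1.17 for Polr1b, -0.70 for Wdr43, -0.81 for Nop14, -0.82 for Wdr75, -0.57 for Utp4, -0.79 for Utp18, -0.81 for Tsr1, -0.59 for Ddx10, -0.75 for Nat10, -0.54 for Wdr36, -0.85 for Pwp2, -0.90 for Nop2, -0.75 for Nop58 and -0.76 for Dkc1. The adjusted p ran from 0.0129 for Nop14 to 0.0478 for Pwp2.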

How the results depend on the processing

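The count of 44 lower genes in Foxp3UP against MockUP was 42 to 47 with RLE factors, library totals, other filters, DESeq2 or scaling without the 51 genes, where 601 to 1081 of all genes were lower. It was 49 with the replicate block, where 1650 of 13711 genes were lower. With the 8 compared libraries alone it was 36, where 329 of 13022 genes were lower. When single libraries were left out it was 37 to 50, where 507 to 1001 genes were lower. Within replicates 1 and 2 alone, 8 libraries, it was 0, where 8 of 14006 genes were lower; 41 were lower at an unadjusted p under 0.05, which 2655 of 14006 genes had in either direction, and within replicates 3 and 4 alone it was 51, where 1643 of 13647 genes were lower. The count of 15 for the difference of effects was 26 with library totals, 33 with DESeq2 and 45 with the replicate block. In these fits 187, 347 and 844 of 13711 genes were lower. The count was 0 within replicates 1 and 2 alone (35 unadjusted, as for 1507 of 14006 genes). Within replicates 3 and 4 alone it was 47, where 1006 of 13647 genes were lower. In replicates 1 and 2 with the spread of all libraries it was 1, where 30 genes were lower. Without single libraries it was 2 to 31, where 39 to 260 genes were lower. The cause was not tested. Both counts of 0, for Foxp3DN against MockDN and for the Mock groups, stayed 0 in all settings run. The snoRNP median of -0.66 was -0.45 and -0.88 within replicates 1 and 2 alone and 3 and 4 alone, -0.45 and -0.86 with the spread of all libraries, and -0.76 to -0.51 without single libraries. Among 34 named genes no setting reversed a direction, while in 891 repeats the call stood, in 50 it was lost and in 11 gained. Over all genes, 833 rose and 821 fell in Foxp3UP against MockUP, 646 and 1081 with library totals, and 1825 and 1650 with the replicate block; the difference of effects passed 251, 651 with DESeq2 and 1739 with the block. The wide spread of Nop10 and Nhp2 between libraries limits what can be shown for them.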
